A study of Mus musculus with 6 samples.

Results

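The mRNAs described here encode the proteins of the spliceosomal small nuclear ribonucleoproteins (snRNPs), their partners and the related Lsm proteins. They were taken from the table of expression values by gene symbol: Snrp for the snRNP proteins, Sf3a and Sf3b for the U2-associated splicing factors, Srsf for the serine/arginine-rich (SR) proteins, Prpf for the pre-mRNA processing factors, and Lsm followed by a number. The symbols gave 54 of 25899 genes, namely 12 Snrp, 8 Sf3, 11 Srsf, 13 Prpf and 10 Lsm genes.

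The values came from fully grown oocytes of CD1 mice aged 58 weeks, the aged female (AF) group of a study of maternal age; oocytes of young females were not analysed here. Strain and age are as the labels give them; the methods of the study name ICR mice and state the age in months, and this difference could not be settled. The females were primed with pregnant mare serum gonadotropin, and the oocytes were collected at the germinal vesicle stage in IBMX, which holds them in meiotic arrest, denuded of their surrounding cells and cultured without it for 180 min until nuclear envelope breakdown (NEBD). All 6 libraries therefore shared the genotype, age, hormone treatment and stage, and all oocytes received cycloheximide, which halts ribosomes on their mRNA, at 0.1 mg/ml for 10 min. Each sample of 200 pooled oocytes was run on a sucrose gradient and collected in 10 fractions, and these were pooled into a non-polysomal part (NP, free RNA and RNA on monosomes) and a polysomal part (P, RNA on polysomes), with 3 libraries of each. The comparison of P with NP asks which of the stored mRNAs were on polysomes at this stage. The labels do not say whether the samples came from separate groups of mice, so the p-values measure the spread between these libraries, which may be technical.

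The spliceosome removes introns in the nucleus. A ring of Sm proteins (SmB or SmN, D1, D2, D3, E, F and G) surrounds the RNA of the U1, U2, U4 and U5 snRNPs, and a ring of Lsm2 to Lsm8 caps the end of U6. A second Lsm ring, in which Lsm1 replaces Lsm8, works in the cytoplasm with the decapping machinery on mRNAs whose poly(A) tail is short. Fully grown oocytes are transcriptionally silent, and after NEBD there is no nucleus in which to splice, so these mRNAs are maternal stores. Their recruitment to polysomes in oocytes often follows cytoplasmic polyadenylation elements (CPEs) near the end of the 3′ untranslated region (3′UTR), beside the poly(A) signal.

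The ends of 8 members are shown because the results turn on these mRNAs or because a CPE and a poly(A) signal lie within 30 bases of each other there. All lie in the 3′UTR of the last exon and are given 5′ to 3′ on the strand of the gene, from GENCODE M21 transcripts on GRCm38. Capitals mark a CPE (TTTTAT or TTTTAAT) or a poly(A) signal (AATAAA or ATTAAA), and where the motifs overlap or abut they form 1 run of capitals.
Snrpd2, chr7:19152706-19152735, plus strand, a CPE: aaaaccctgtgctttttggtTTTTATgttt
Snrpc, chr17:27851929-27851958, plus strand, a poly(A) signal: gtgaaatgtgaaAATAAAgtcatcagctct
Srsf1, chr11:88053717-88053746, plus strand, a poly(A) signal: attttgggagtgAATAAAaagctgttaatt
Lsm3, chr6:91522596-91522625, plus strand, a poly(A) signal and a CPE: aaATTAAAtttgatgtttccttTTTTATta
Lsm7, chr10:80852839-80852868, minus strand, a CPE overlapping a poly(A) signal: ttgttttgttTTTTAATAAAattgcccatg
Snrpd3, chr10:75537342-75537371, plus strand, a CPE and a poly(A) signal: ggtttaTTTTATtgtattAATAAAtggtgc
Prpf6, chr2:181655631-181655660, plus strand, a poly(A) signal and a CPE: cttttactcATTAAAggtTTTTATagagtt
Prpf8, chr11:75509418-75509447, plus strand, a poly(A) signal directly before a CPE: aacaaaatgtAATAAATTTTATaaatagtg
The window of Snrpd2 ends at the 3′ end the expression table gives this gene, and the GENCODE transcript runs 807 bases further. The window of Snrpd3 lies beyond the 3′ end the table gives that gene. Lsm10 held neither motif in the parts of its 3′UTR that were searched.

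The libraries differed in depth. The values are FPKM, that is fragments counted over a gene's exons, divided by their length and by the depth of the library. The smallest steps between low values corresponded to about 1237784, 18092950 and 12128067 reads in NP replicates 1 to 3 and to 163822, 1141476 and 1549330 reads in P replicates 1 to 3. A value resting on 3 reads, taken as the floor, was at the median over the members 0.656, 0.0449 and 0.0669 FPKM in the NP libraries and 4.96, 0.711 and 0.524 FPKM in the P libraries. The FPKM of the whole table summed to 597277 to 633211 in NP and to 246215 to 393926 in P. Most genes were lower in P on this scale: 80.1% of the 10578 genes tested had a log2 ratio of P over NP below 0, with a median of -1.03. With the libraries scaled to a common FPKM sum, 61.3% of 10415 genes tested lay below 0, with a median of -0.42. The part of the lower depth in P was not tested. Oocyte markers (12 genes, among them Zp3, Gdf9 and Bcl2l10) summed to 15020 to 16520 FPKM in NP and 7389 to 18760 in P. Of 11 granulosa and cumulus cell markers, 6 were at 0 in every library, namely the defining Foxl2, Amh and Fshr as well as Hsd17b1, Has2 and Ptx3. The sum was 7.15 to 104.2 FPKM in NP and 0 to 15.4 in P, most of it Cyp19a1, the aromatase gene; its part in the results was not tested. Of 7 blood and immune markers in the table, 6 were at 0 in every library and the sum did not pass 0.643.

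Snrpd2 and Snrpc were lower in P, and no other member passed the main test, which did not pair the fractions, in either direction. Of the 54 members, 46 had a mean above 1 FPKM in NP or P and were tested (limma on log2(FPKM + 1), Benjamini-Hochberg adjustment over all 10578 genes, threshold 0.1). The 2 lower members compare with 190 genes lower over the whole table, or 1.8%, and no member was among the 2 genes that were higher, or 0.0189%. Each sample gave an NP and a P part, but the labels do not say in words which libraries came from the same sample. With the replicate number fitted as a block, Lsm10 passed as well (adjusted p = 0.0830 by limma), and lower genes were then 6.27% of all. FPKM are relative to each library, so a lower value in P is a smaller share of the P reads and not an amount per oocyte. Fewer oocytes with an mRNA on polysomes and less of it there in each oocyte cannot be told apart in pooled samples.

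**Figure D1:**
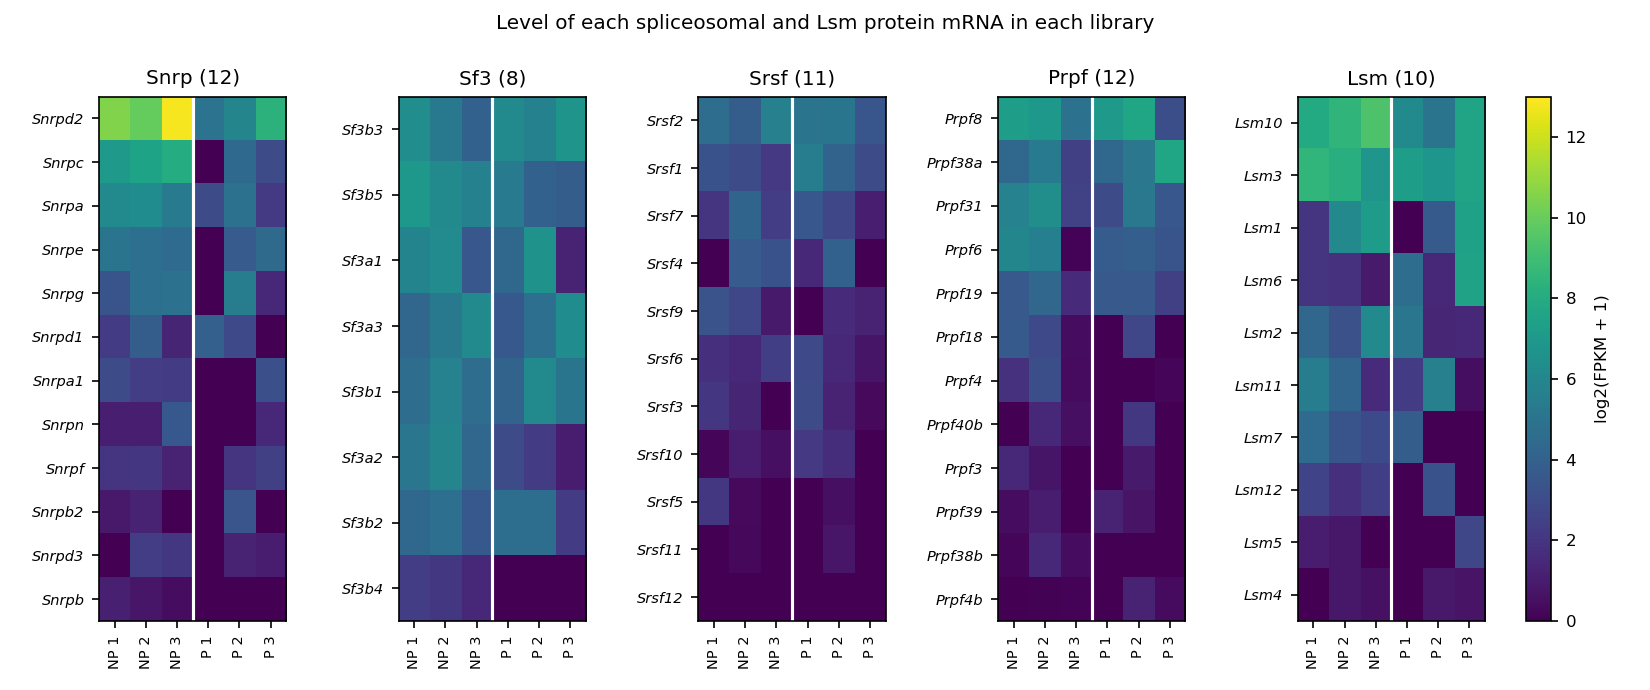
Heat map of log2(FPKM + 1) for 53 of the 54 members (rows, grouped by symbol and ordered by mean) in 3 non-polysomal (NP) and 3 polysomal (P) libraries (columns); the white line divides the fractions. Snrpd2 is the brightest row in NP, up to 7318 FPKM in NP replicate 3, and 24 of these members are at 0 in P replicate 1.

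In NP, a few mRNAs carried most of the signal. The 54 members together made up 0.449% to 1.51% of the table's FPKM in NP and 0.248% to 0.442% in P. Snrpd2 alone was 46.9%, 34.6% and 81.3% of the members' sum in the 3 NP libraries, against 3.53%, 5.52% and 20.3% in the 3 P libraries. Without Snrpd2, the other 53 members summed to 1684 to 1858 FPKM in NP and to 817 to 1295 in P, with no overlap on this scale. As a share of each table's FPKM the fractions did overlap, with 0.278%, 0.293% and 0.282% in NP against 0.239%, 0.417% and 0.329% in P. Of the 54 members, 42 were above 0 in all 3 NP libraries and 25 in all 3 P libraries, 4 were at 0 in all of P, and Srsf12, an SR-like splicing regulator, was at 0 in all 6 libraries. Not tested for low values were Snrpb, Lsm4, Prpf3, Prpf38b, Prpf39, Prpf4b, Srsf11 and Srsf12.

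The log2 ratios of the tested members ran from -5.05 for Snrpc to 2.91 for Lsm6, with a median of -0.60. Of the 46, 34 lay below 0 and 12 above, but only 19 lay below the median of all genes. The Snrp genes had the lowest median (-1.48, 11 tested), followed by Lsm (-1.15, 9 tested), Sf3 (-0.73, 8 tested), Prpf (-0.21, 9 tested) and Srsf (-0.21, 9 tested). The directions of these medians depended on the scale: with 3 rescalings that equalise the libraries, the median of all genes was -0.42 to -0.22, the Snrp median -1.10 to -0.52 and the Lsm median -0.54 to -0.39, whereas the medians of Sf3, Prpf and Srsf were above 0. In 9 of the 46 tested members all 3 P values lay below all 3 NP values (23.2% of all genes tested), and in none did all P values lie above (0.633% of all genes).

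**Figure D2:**
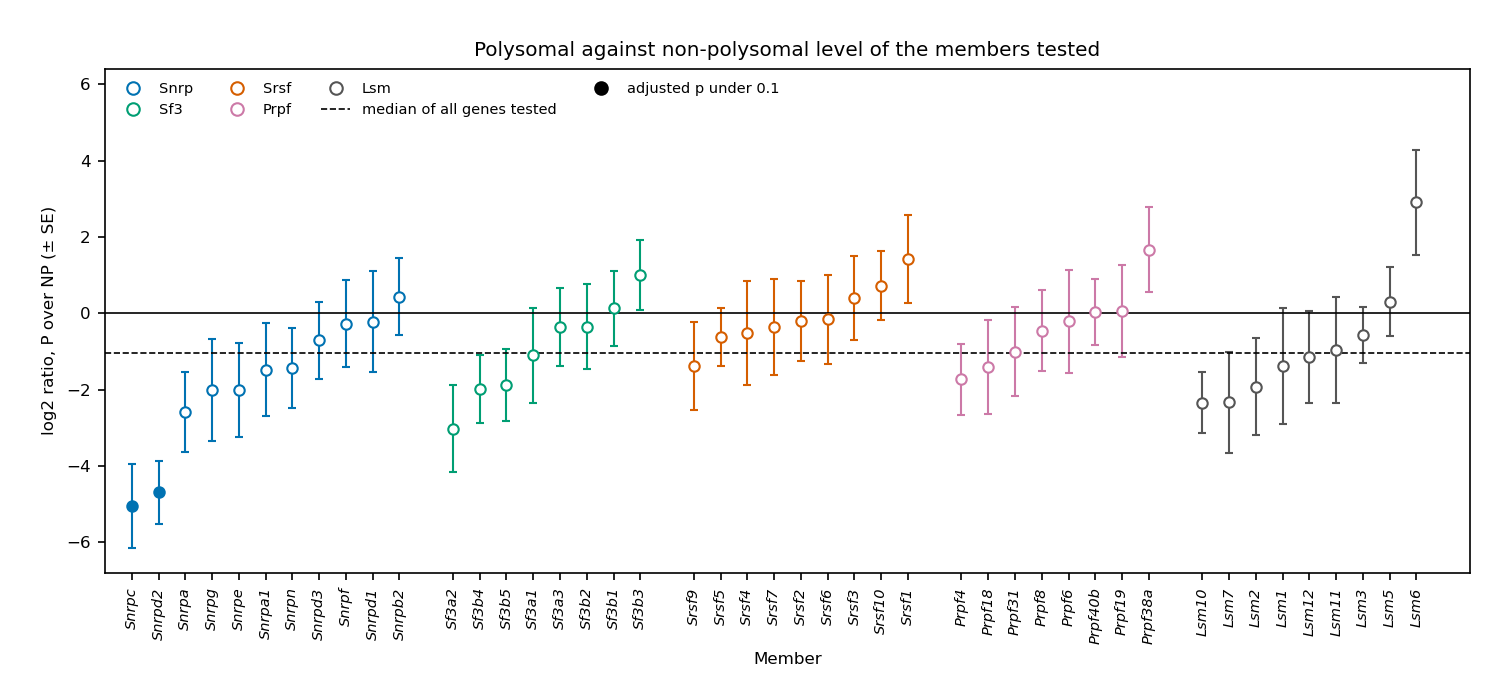
Log2 ratio of P over NP with its standard error for 45 of the 46 members tested, grouped by symbol; the solid line is 0, the dashed line the median of all genes tested (-1.03), and filled points passed an adjusted p of 0.1. Only Snrpc and Snrpd2 are filled; 34 points lie below 0 on this scale, and 20 to 23 of the members tested lie below 0 after the 3 rescalings.

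Among the Sm core mRNAs, Snrpd2 stood far above the rest in NP. Its values were 1500, 985 and 7318 FPKM in NP against 29.9, 60.0 and 331 in P. Every P value was below every NP value, and replicate 3 was the highest library in each fraction. The mean was 3267 ± 3517 (SD, n = 3) in NP and 140.2 ± 165.6 (SD, n = 3) in P, and the log2 ratio was -4.69 (SE 0.82, adjusted p = 0.0126 by limma). In NP it was 37.8 to 255 times the next Sm core mRNA per length, and in P 1.41 to 15.3 times. It did not pass without NP replicate 1 or 3 (adjusted p = 0.233 and 0.165 by limma), without the filter on low values (0.466), without the trend (0.119), or after median-of-ratios or quantile rescaling (0.432 and 0.318). By mean NP level it ranked 11th of all genes in the table, and by mean P level 422nd.

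The other Sm core mRNAs were low, although each protein takes 1 place in the ring. Together these 7 mRNAs summed to 48.9, 74.5 and 68.4 FPKM in NP and to 14.6, 65.5 and 30.8 FPKM in P, and these ranges overlapped. Snrpe had 30.6, 25.9 and 22.1 FPKM in NP and, in P, 0, 12.1 and 21.6, so the groups did not overlap, by a narrow margin, and the ratio of -2.01 did not pass the test (SE 1.24, adjusted p = 0.416 by limma). Snrpg had 9.23, 26.1 and 28.7 FPKM in NP, but 95.8% of its P signal came from P replicate 2 (0, 42.6 and 1.84 FPKM).

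Snrpd1, Snrpd3 and Snrpf stayed below 15 FPKM in every library. Snrpd1 was 3.86, 13.3 and 1.58 FPKM in NP against 14.6, 6.28 and 0 in P, with a log2 ratio of -0.22 (SE 1.32). The value in P replicate 1 rested on few reads, with a floor of 8.92 FPKM by estimate. Snrpd3 was 0, 4.21 and 3.28 FPKM in NP and, in P, 0, 1.45 and 1.07. Snrpf was 2.82, 3.21 and 1.44 FPKM in NP against 0, 3.05 and 4.498 in P, and 65.9% of its exon bases are shared with Ccdc38 on the opposite strand. All 3 had P and NP values that overlapped.

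SmB, the ubiquitous form of the first ring protein, and SmN, its imprinted paralog of brain and heart, come from Snrpb and Snrpn. Snrpb was 1.23, 0.755 and 0.334 FPKM in NP and listed at 0 in all 3 P libraries, where 3 reads would have given 9.27, 1.33 and 0.9799 FPKM. Snrpn was 1.12, 1.13 and 11 FPKM in NP and, in P, 0, 0 and 1.79 (log2 ratio -1.43, SE 1.05, adjusted p = 0.483 by limma). Snurf, which shares 10.0% of the exon bases of Snrpn on the same strand, showed a like order in NP, at 3.74, 3.84 and 16.0 FPKM, and was 0 in P.

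Snrpc encodes the C protein of the U1 snRNP, which stabilises pairing with the 5′ splice site. It had 125, 185 and 259 FPKM in NP against 0, 20.7 and 6.75 in P, so every P value was far below every NP value. The means were 189.8 ± 67.5 and 9.15 ± 10.6 (SD, n = 3), and the log2 ratio was -5.05 (SE 1.11, adjusted p = 0.0360 by limma). The size of this ratio depends on the pseudocount, because 1 P library was at 0: it was -6.23 with a pseudocount of 0.1 and -4.03 with 5. With 1 library left out the ratio was -6.04 to -3.82. It did not pass when any NP library was left out (adjusted p = 0.166 to 0.322 by limma), with a pseudocount of 0.1, without the filter or the trend, or after any of the 3 rescalings (0.106 to 0.506).

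No other U1 mRNA that was tested passed. Snrpa, for the A protein that binds a stem-loop of U1 RNA, was 74.2, 79.6 and 39.0 FPKM in NP and, in P, 6.96, 28.5 and 3.68, with no overlap and a log2 ratio of -2.60 (SE 1.05, adjusted p = 0.240 by limma). Prpf39, which was not tested, was 0.367, 1.09 and 0 FPKM in NP against 1.39, 0.597 and 0 in P, and Prpf40b was not above 3.36 FPKM in any library.

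Within U2, subunits of the same complexes spread widely. SF3a and SF3b bind the branch site with U2. Sf3a2 was 33.7, 60.0 and 18.5 FPKM in NP and, in P, 6.89, 3.96 and 0.971, and the groups did not overlap (log2 ratio -3.02, SE 1.15, adjusted p = 0.207 by limma). Its partners Sf3a1 and Sf3a3 overlapped between the fractions, with NP means of 47.7 ± 33.7 and 42.3 ± 26.7 FPKM against P means of 41.2 ± 53.8 and 38.7 ± 35.9 (SD, n = 3). Sf3a2 shares 16.1% of its exon bases with Plekhj1 on the opposite strand, an mRNA at 15.3 to 283.2 FPKM in NP and 20.9 to 111.5 in P.

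Of the SF3b subunits, Sf3b3 was the only one whose P mean exceeded its NP mean by more than 1.5-fold. It was 80.8, 36.9 and 15.5 FPKM in NP against 73.8, 50.7 and 105.2 in P, with overlap (log2 ratio 1.003, SE 0.93, adjusted p = 0.560 by limma). Sf3b1, the branch-site clamp and largest SF3b protein, was 23.9, 53.8 and 24.3 FPKM in NP and, in P, 16.8, 74.7 and 32.5, a log2 ratio of 0.13 (SE 0.99), and Sf3b2 overlapped as well (-0.36, SE 1.12). Sf3b5, a small subunit, had 122.3, 74.8 and 52.1 FPKM in NP against 41.6, 15.5 and 13.2 in P, and the groups did not overlap (log2 ratio -1.88, SE 0.95, adjusted p = 0.337 by limma).

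Sf3b4 was 4.11, 3.32 and 1.79 FPKM in NP and listed at 0 in all 3 P libraries, where 3 reads would have given 8.47, 1.22 and 0.896 FPKM. The absence from P replicate 1 was thus not detectable as a difference at its depth. Without this member the median log2 ratio of the Sf3 genes was -0.36 and that of all members tested -0.58. Sf3b6, listed under its older symbol 0610009D07Rik and so outside the symbol rule, was 2.17, 14.7 and 62.6 FPKM in NP and, in P, 0, 3.14 and 2.89 (log2 ratio -2.54, SE 1.33, adjusted p = 0.351 by limma). The U2 proteins A′ and B″ come from Snrpa1 and Snrpb2, each above 0 in P in 1 library, at 8.17 FPKM in P replicate 3 and 9.81 FPKM in P replicate 2.

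**Figure D3:**
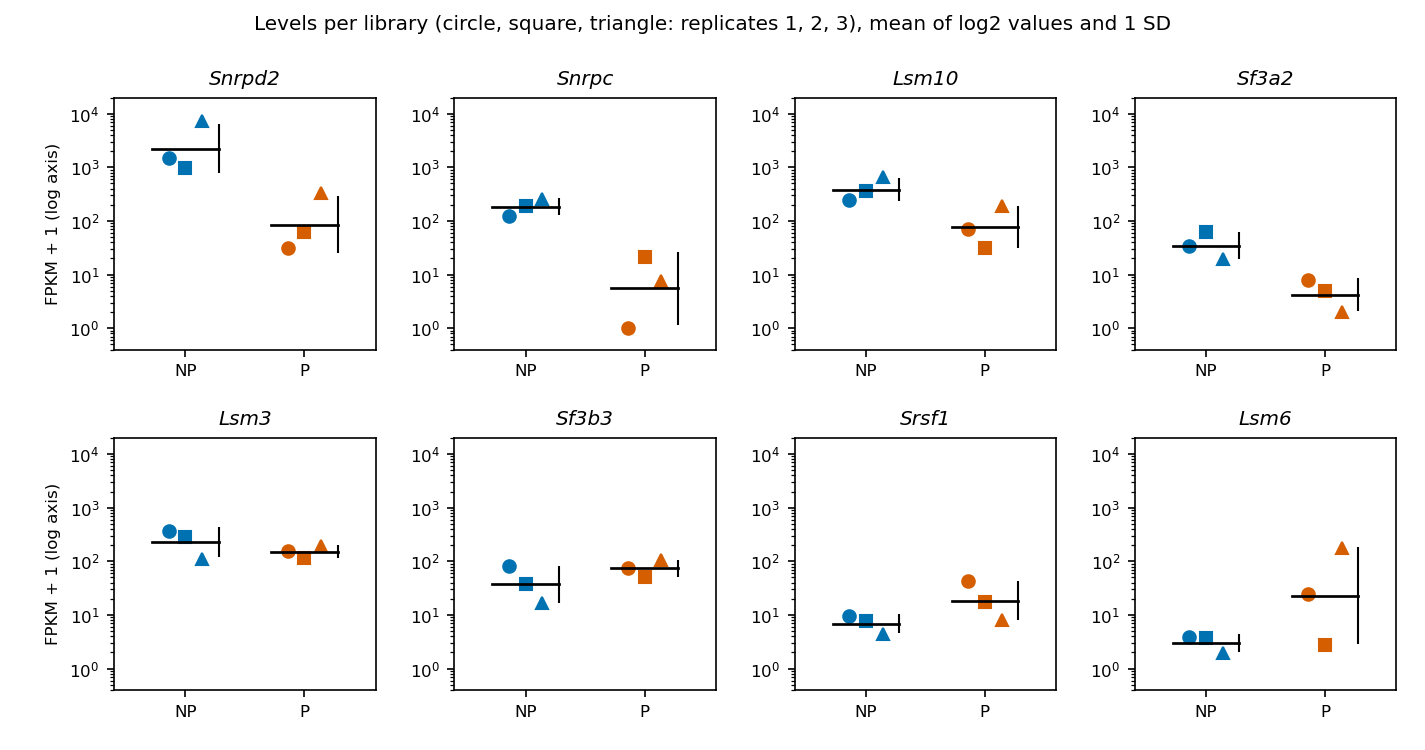
FPKM + 1 on a log axis in each library for 8 members, with circles, squares and triangles for replicates 1, 2 and 3, horizontal bars for the mean of the log2 values and vertical bars for 1 SD (n = 3). P lies below NP without overlap for Snrpd2, Snrpc, Lsm10 and Sf3a2, whereas the fractions overlap for Lsm3, Sf3b3, Srsf1 and Lsm6.

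The 5 mRNAs of the U4/U6.U5 tri-snRNP were each lowest of the NP libraries in NP replicate 3. Prpf8, the largest and most conserved protein at the catalytic centre, was 156.4, 121.9 and 29.2 FPKM in NP against 126.8, 199.2 and 7.79 in P, so that replicate 3 was the lowest in each fraction (log2 ratio -0.46, SE 1.07, adjusted p = 0.837 by limma). Prpf6, a bridge between U5 and U4/U6, was 61.3, 48.1 and 0.0855 FPKM in NP but 12.7, 14.1 and 9.37 in P. Prpf31, a U4/U6 protein, was 53.2, 83.8 and 4.74 FPKM in NP and, in P, 6.73, 35.6 and 10.4. Of its exon bases 18.1% are shared with Gm15927 on the opposite strand, which had 32.1, 105.0 and 0 FPKM in the NP libraries. Prpf4 was 2.56, 7.84 and 0.305 FPKM in NP against 0, 0 and 0.114 in P, without overlap (log2 ratio -1.74, SE 0.93, adjusted p = 0.359 by limma). In P, 3 reads would have given 3.23, 0.463 and 0.341 FPKM. Its NP values in replicates 1 and 3 lay below the P floors of the same number, so the separation there was not detectable.

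The same held for most Prpf genes. Of the 9 tested, 8 had their lowest NP value in NP replicate 3, compared with 29 of the 46 members tested and 60.8% of all genes tested, and the Prpf sum was 320.6, 334.4 and 42.6 FPKM in the NP libraries. In P the Prpf sum was 197.1, 307.9 and 246.3 FPKM. Without NP replicate 3, Prpf6 had a log2 ratio of -2.10 in place of -0.21.

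Among the factors of activation and later steps, Prpf38a, which joins the spliceosome for its activation, was 20.3, 40.4 and 4.45 FPKM in NP and, in P, 19.6, 34.2 and 208.1. Its P value in replicate 3 made up 79.5% of its P signal, and the log2 ratio of 1.66 did not pass the test (SE 1.11, adjusted p = 0.452 by limma). Prpf19, the ubiquitin ligase of the Prp19 complex, had a ratio near 0 (0.06, SE 1.21), with 11.5, 18.7 and 2.04 FPKM in NP against 11.5, 11.3 and 4.47 in P. Prpf18, a step 2 factor, was 12.1, 6.26 and 0.331 FPKM in NP and, in P, 0, 5.70 and 0. Prpf4b, a kinase, and Prpf38b did not pass 1.78 FPKM in any library.

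The SR proteins bind exonic enhancers and recruit snRNPs, and several also act on mRNA in the cytoplasm. Their mRNAs were scarce, with a median mean of 2.81 FPKM in NP and 2.93 in P, and none of the 9 tested passed the test. Srsf2 was the highest by mean, at 23.8, 13.2 and 50.3 FPKM in NP against 31.0, 32.3 and 10.0 in P (log2 ratio -0.21, SE 1.04). Srsf1, the founding member of the family, had the highest ratio: 8.63, 6.71 and 3.39 FPKM in NP and, in P, 42.8, 16.4 and 7.23. Its lowest P value lay inside the NP range, the mean was 3.55-fold higher in P, and the log2 ratio was 1.42 (SE 1.16, adjusted p = 0.515 by limma).

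Srsf9 had the lowest ratio of the SR genes tested, -1.39 (SE 1.15, adjusted p = 0.520 by limma), with 8.91, 5.73 and 0.909 FPKM in NP against 0, 1.93 and 1.42 in P. By estimate 3 reads would have given 11.1, 1.59 and 1.17 FPKM in P, so its P values rested on few reads and its ratio is uncertain. Srsf3, Srsf5, Srsf6, Srsf7, Srsf4 and Srsf10 had log2 ratios between -0.62 and 0.72, each with an SE of at least 0.77. The Srsf sum was 53.0 to 71.9 FPKM in NP and 20.8 to 103.2 in P, so the groups overlapped. Of the 9, 7 had their lowest P value in P replicate 3, against 30.8% of all genes tested. Srsf4 shares 43.0% of its exon bases with Gm12992 on the opposite strand.

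Of the 7 Lsm ring mRNAs, Lsm3 was the highest in 5 of the 6 libraries. This mRNA, whose protein is common to both rings, was 372.8, 281.7 and 109.5 FPKM in NP and, in P, 155.4, 113.6 and 194.1, the only ring mRNA above 100 FPKM in all 6 libraries. Lsm1 was above Lsm3 in NP replicate 3, and in P replicate 3 Lsm3 was 1.1 times Lsm6. The fractions overlapped, with a log2 ratio of -0.58 (SE 0.74, adjusted p = 0.675 by limma). Lsm4 and Lsm5, which also belong to both rings, did not pass 0.844 and 5.84 FPKM in any library.

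Lsm1 and Lsm8 set the cytoplasmic ring apart from the nuclear one. Lsm1 was 3.08, 68.6 and 138.5 FPKM in NP against 0, 11.9 and 171.8 in P, and 93.5% of its P signal was in P replicate 3 (log2 ratio -1.39, SE 1.51, adjusted p = 0.617 by limma). Lsm8, which the table lists under the older symbol Naa38 and which the symbol rule therefore left out, was at 0.787 FPKM in NP replicate 1 and at 0 in the other 5 libraries. Lsm1 was thus the higher of the pair in every library but P replicate 1, where each was at 0.

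Lsm6 was the member with the highest log2 ratio (2.91, SE 1.38), which did not pass the test (adjusted p = 0.311 by limma). It was 2.97, 2.66 and 0.951 FPKM in NP and, in P, 23.96, 1.72 and 176.2, so that P replicate 2 lay inside the NP range and P replicate 3 held 87.3% of the P signal. Lsm7 was 22.4, 9.33 and 6.52 FPKM in NP against 13.04, 0 and 0 in P, and its P signal rested on P replicate 1. The floor there was 11.4 FPKM by estimate, from 1601 exon bases. Its transcript has 468 bases, and the gene start behind the expression values differs from that of GENCODE. The floor is therefore uncertain, and the value may rest on fewer than 3 reads. Lsm2 was 18.7, 8.40 and 74.5 FPKM in NP and, in P, 32.9, 1.67 and 1.84.

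Lsm10 and Lsm11 replace SmD1 and SmD2 in the U7 snRNP, which cuts the 3′ end of histone pre-mRNA. Lsm10 was 241.6, 357.5 and 657.5 FPKM in NP against 71.2, 30.7 and 191.6 in P. All P values were below all NP values, the NP mean was 4.28 times the P mean, and the log2 ratio of -2.34 did not pass the test (SE 0.79, adjusted p = 0.164 by limma), except when P replicate 3 was left out (-3.01, adjusted p = 0.0438 by limma; lower genes were then 3.1% of all) or when the replicate number was fitted as a block (adjusted p = 0.0830 by limma; lower genes were then 6.27% of all). Lsm11 was 44.2, 17.97 and 1.97 FPKM in NP and, in P, 3.78, 49.7 and 0.4001, with overlap (log2 ratio -0.97, SE 1.39, adjusted p = 0.721 by limma). Lsm12, an RNA-binding adaptor outside the rings, had 5.08, 2.36 and 4.25 FPKM in NP against 0, 8.80 and 0 in P.

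For some members the signal in P rested on 1 library. Of the 41 members with a P mean above 1 FPKM, 12 (29.3%) had more than 90% of their P sum in 1 of the 3 libraries, and over all genes with such a P mean the share was 23.1%. Replicates correlated across genes with Pearson's r of 0.699 to 0.829 between NP libraries and 0.606 to 0.684 between P libraries on the log2 scale (genes are not independent replicates). The median residual SD was 1.19 for the members tested and 1.22 for all genes.

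The median ratio of the members rose with coding length, and the members departed most from all genes among the long mRNAs. The median log2 ratio was -1.63 for the 16 members tested with up to 500 coding nucleotides, -0.97 for 19 with more than that and up to 1500, and -0.21 for 11 with over 1500. Over all genes the same bins gave -1.23, -1.15 and -0.90. Across the 46 members Spearman's rho of the log2 ratio was 0.26 with coding length and 0.41 with transcript length, against 0.14 and 0.20 over 8951 genes; these are descriptions over mRNAs that share the same 6 libraries. Lsm6, with 243 coding nucleotides and the highest ratio, went against the order.

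**Figure D4:**
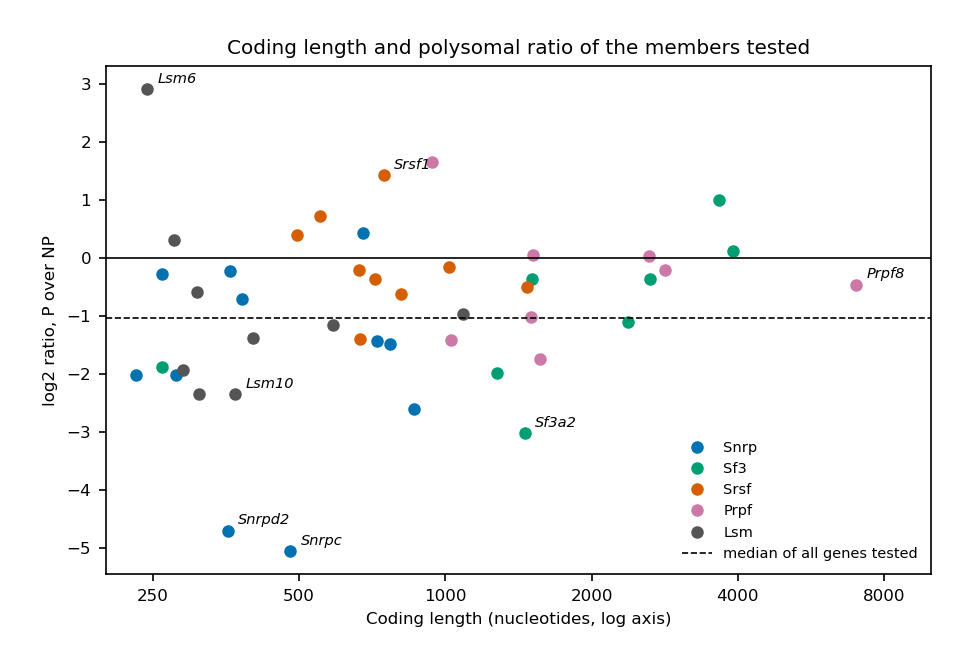
Log2 ratio of P over NP against coding length in nucleotides (log axis) for 45 of the 46 members tested, coloured by symbol; the solid line is 0 and the dashed line the median of all genes tested. Snrpd2, Snrpc and Lsm10 lie low among the short mRNAs, and Lsm6, with 243 nucleotides, lies highest.

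A CPE on the sense strand in the last 100 bases of the 3′UTR was present in 12 of the 46 members tested (26.1%), or 12 of all 54 (22.2%), and in 19.0% of the 8829 genes tested that have a 3′UTR. Snrpd2 was not among the 12, because the transcript searched runs past the window printed above. A poly(A) signal in the last 40 bases was present in 73.9% of the members tested and 76.9% of the genes tested. The 12 members with such a CPE, all tested, had a median log2 ratio of -0.54 and the 34 tested without had -0.82; the medians over all genes were -0.86 (1678 genes) and -1.07 (7151 genes). Of the members whose CPE and poly(A) signal are printed together above, Lsm3, Prpf6, Prpf8 and Snrpd3 had ratios of -0.58, -0.21, -0.46 and -0.71, and Lsm7 had -2.34. A match of letters is a description and not a tested site.

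Other genes of splicing and Lsm function were placed in 11 lists of 119 genes, of which 116 were in the table and 97 were tested. Of these, 1 was lower in P and 0 were higher (1.8% and 0.0189% of all genes). The lower gene was Bud31, a protein of the activated spliceosome, with 7171, 9096 and 3848 FPKM in NP and, in P, 1411, 1653 and 1311 (log2 ratio -2.12, SE 0.42, adjusted p = 0.0221 by limma). With any NP library left out, none of the lists' genes passed. The median log2 ratio over the 97 was -0.97, near that of all genes.

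The SMN complex and the Sm methylation machinery load the Sm ring onto snRNA. All 10 tested genes of this list had a log2 ratio below 0, with a median of -2.13, against 80.1% of all genes tested. After each of the 3 rescalings 9 of 10 were below 0, with medians of -1.32 to -1.04, against 56.7% to 61.3% of all genes. None passed the test. Gemin7, the highest of them, was 189.9, 270.1 and 201.8 FPKM in NP against 52.2, 35.8 and 57.4 in P, with no overlap (log2 ratio -2.17, SE 0.78, adjusted p = 0.189 by limma). The decapping partners of the Lsm1 ring had a median of -0.93 (9 tested) that became -0.035 to 0.29 after the rescalings, with Lsm14b, an oocyte mRNP protein, at 958.7, 619.7 and 173.0 FPKM in NP and, in P, 360.9, 345.6 and 109.6.

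In the other lists none passed the test either. Rbm42, the highest of the tri-snRNP factors, was 436.9, 324.2 and 243.6 FPKM in NP against 58.5, 55.9 and 101.0 in P, without overlap (log2 ratio -2.22, SE 0.74, adjusted p = 0.161 by limma). Eif4a3, the helicase of the exon junction complex, was 541.4, 431.5 and 291.2 FPKM in NP and, in P, 244.5, 194.0 and 136.6. Slbp, which binds the histone mRNA stem-loop, was 107.7, 33.4 and 15.8 FPKM in NP against 180.2, 40.4 and 65.0 in P. Puf60 led the U2-associated factors, Pdcd7 the minor spliceosome, Clk2 the SR kinases and SR-related proteins, Tfip11 the step 2 and release factors and Snrnp70 the U1 factors, with log2 ratios of -1.25, -0.69, -1.18, -1.82 and -1.66.

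Several members have near-identical copies of part of their transcript in the genome, and their values are uncertain to that extent. Processed pseudogenes match Snrpd2 over 357 of 1420 bases at 98.9% (Gm10120) and 95.8% (Gm5449), and of these Gm5449 is in the table, at no more than 2.54 FPKM in any library. Snrpc has 3 such copies over 480 or 481 bases at 96.5% to 98.3%, and Lsm6 has 3 at 96.2% to 98.4%. Lsm7 matches Gm10146 over 309 bases at 100.0%, and that pseudogene was 1.80, 6.41 and 2.94 FPKM in NP and 0 in P. How reads matching several places were assigned, and whether counting used the strand, is not given in the sources used here.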

How the data were processed

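Ribosomal RNA was depleted and whole-transcriptome amplified cDNA of 3 NP and 3 P libraries was sequenced. The authors used Trim Galore 0.4.1 for trimming, HISAT2 2.0.5 with the GRCm38 genome for alignment and Seqmonk 1.40.0 for quantification, and deposited 1 FPKM value per gene and library. The sources used here do not give the annotation release. These values are relative to each library, so a P value is a share of the P reads and not an amount per oocyte. For a duplicated symbol the row with the highest mean was kept (25965 rows, 25899 symbols). Genes with a mean above 1 FPKM in NP or P were tested with limma 3.58.1 (R 4.3.3) on log2(FPKM + 1), with an intensity trend, two-sided, without a replicate block, at an adjusted p of 0.1. An exact permutation test of 3 against 3 cannot go below 0.1. Floors are 3 reads at the depth given by the smallest FPKM steps and GENCODE M21 exon lengths; 57.8% to 65.0% of low values were whole reads within 0.02, so depths are approximate and floors cover counting error only. Copies are transcripts with at least 95% identity over 150 bases (BLAST 2.17.0).

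The members and gene lists were chosen with earlier results of these data known. Named in full were members past the threshold, the highest and lowest of each symbol group and role by mean and by ratio, Lsm1, Lsm8, Snrpb and Snrpn, and from the lists the genes past the threshold and each list's highest; other members were named to account for them. Pseudocounts of 0.1 and 5, no filter and a filter of 5 FPKM, 3 rescalings, no trend, a block, a threshold of 0.05, sums of duplicated rows and leaving out each library were tried. The values of 1 member are not reported here by name; it is included in the counts and medians.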

Additional observations from a re-analysis of the deposited data

How the results depend on the processing

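The number of members past the threshold was 2. It was 2 with a pseudocount of 5, a filter of 5 FPKM, a threshold of 0.05 or summed duplicates, 1 with a pseudocount of 0.1 or a common FPKM sum, and 0 without the filter on low values, after median-of-ratios rescaling, after quantile normalization or without the trend. Leaving out 1 library gave 0 to 3. At an unadjusted p under 0.05 the unfiltered fit in limma gave 8 of 54 members and 1774 of 25899 genes, and the filtered fit 7 of 46 members and 1669 of 10578 genes. The number of all genes past the threshold, 192, became 69 with a pseudocount of 0.1, 1 without the filter, 3 after median-of-ratios rescaling, 4 after quantile normalization, 7 with a common FPKM sum, 15 without the trend, 65 at the threshold of 0.05 and 1 to 331 when 1 library was left out. The number of pathway genes, 1, became 2 with a pseudocount of 5 or a filter of 5 FPKM, 0 without the filter, after each rescaling or without the trend, and 0 to 4 when 1 library was left out. The median log2 ratio of the members, -0.60, was -1.05 with a pseudocount of 0.1, -0.0401 after median-of-ratios rescaling, 0.20 after quantile normalization, 0.13 with a common FPKM sum and -1.07 to -0.38 when 1 library was left out, the lowest without P replicate 2.

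Same-numbered NP and P libraries correlated in their deviations from the fraction means with r = 0.0634, 0.0991 and 0.1158, against -0.0886 to 0.0208 for other pairs, so every library correlated best with its own number, as a hint from the data. With the replicate number as a block, 3 members (Lsm10 added, adjusted p = 0.0830 by limma), 4 pathway genes and 668 genes in all passed. Of the 24 members named in full and tested, under 17 alternatives each, Snrpd2 and Snrpc kept their direction in all, with adjusted p by limma of 7.4e-05 to 0.466 and 0.00686 to 0.506.

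Among these 24, the log2 ratio changed sign in 8, none of them past the threshold; of all members tested, 34 of 46 lay below 0 and 20 to 23 after the 3 rescalings. After median-of-ratios rescaling, quantile normalization and a common FPKM sum it was 0.42, 0.37 and 0.35 for Lsm3, 0.79, 0.63 and 0.55 for Prpf6, 0.51, 0.74 and 0.46 for Prpf8, 0.40, 0.58 and 0.51 for Snrpd1, and 0.73, 1.12 and 0.69 for Srsf2. It was 0.33 for Lsm11 after quantile normalization, 0.016 for Snrpd1 with a pseudocount of 5, and 0.55 for Prpf6 and -0.17 for Snrpb2 with a pseudocount of 0.1. With 1 library left out it was -3.25 to 0.47 for Lsm1, -2.40 to 0.19 for Lsm11, -2.10 to 0.82 for Prpf6, -1.32 to 0.94 for Prpf8, -1.06 to 0.92 for Snrpd1 and -0.65 to 0.32 for Srsf2. The cause was not tested. With 1 library left out, the lone pair of its fraction was assumed to vary like the other libraries. At 24 of 54 members at 0, P replicate 1 limits what can be seen for low mRNAs. Leaving out Sf3b4, which is at 0 in P, was chosen after seeing the data.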
